A study of Mus musculus with 20 samples.

Results

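The comparison set out here asks which changes of liver gene expression after bile duct ligation depend on the mouse having STING. It used all 20 libraries of the series, 5 from each of 4 groups of livers, and tested 14059 of the 54532 gene entries in the deposited table. The groups were sham-operated wild-type mice (Sham_Wt), sham-operated STING knockout mice (Sham_KO), wild-type mice whose bile duct had been ligated for 7 days (BDL_Wt) and STING knockout mice ligated for the same time (BDL_KO). The sources used here give no strain, no age, no deleted part of the gene and no word on whether the knockout affects the whole body. No label states that the libraries of a group are separate animals. The p-values therefore measure only the spread between libraries, which may be technical. In this surgical model bile cannot drain from the liver, and the retained bile acids injure hepatocytes, drive bile duct cells to proliferate and draw in leukocytes.

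STING, encoded by Tmem173, is an adaptor in the endoplasmic reticulum that is activated by cyclic GMP-AMP made by cGAS when DNA is present in the cytosol. It then recruits the kinase TBK1, which activates the transcription factor IRF3 and, with NF-kB, the genes of type I interferon and inflammatory cytokines. Secreted interferon acts back through its receptor and a complex that includes IRF9 on a large set of interferon-stimulated genes. In liver, STING is known mainly from macrophages, endothelial cells and other non-parenchymal cells, and hepatocytes are described as having little of it.

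For each gene the response of a genotype is the mean log2(FPKM + 0.5) of its ligated libraries minus that of its sham libraries. FPKM counts fragments per kilobase of transcript, scaled to a library size, and is thus a level per length. The interaction is the knockout response minus the wild-type response, so a negative value marks a response that was lower in the knockout. Differences are given in these log2 units ± standard error from limma, with n = 5 libraries per group, and p-values carry the Benjamini-Hochberg adjustment over all 14059 genes, with 0.05 as the threshold. This scale understates changes of genes with low levels. Where values are listed for single libraries, the order within a group is fixed. It is Sham_Wt_2223, Sham_Wt_2224, Sham_Wt_2227, Sham_Wt_2228 and Sham_Wt_2229, then BDL_Wt_2233, BDL_Wt_2235, BDL_Wt_2236, BDL_Wt_2237 and BDL_Wt_2240. For the knockout it is Sham_KO_2347, Sham_KO_2349, Sham_KO_2350, Sham_KO_2352 and Sham_KO_2353, then BDL_KO_2359, BDL_KO_2365, BDL_KO_2248, BDL_KO_2370 and BDL_KO_2371.

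Between 14.95 and 20.90 M fragments were assigned to genes per library, and a single fragment from a 1 kilobase transcript equalled 0.047 to 0.073 FPKM. The library size behind the deposited values was not the assigned total, at 13.62 M against 18.29 M in BDL_KO_2248 and 21.41 M against 18.62 M in BDL_Wt_2236, and rescaled to assigned fragments 21 genes were called for the interaction described below in place of 53, with 19 shared. Hepatocyte markers summed to 28615 to 87611 FPKM, as the highest of the summed cell type lists in all 20 libraries. Tmem173 lay below wild type in all 5 BDL_KO libraries, at 0.840, 1.38, 0.638, 2.57 and 1.66 FPKM against 2.89, 2.60, 4.60, 3.91 and 4.20 in BDL_Wt (exact permutation p = 0.00794, two-sided, the smallest that 5 against 5 can give), while the sham groups overlapped. Libraries BDL_KO_2359 and BDL_KO_2248 stood apart from the other 3 ligated knockout libraries. Their summed cholangiocyte markers, a sum made up mostly of Spp1, were 94.4 and 72.4 FPKM against 354 to 589. Their stellate cell markers were 95.9 and 69.0 against 299 to 371, and their hepatocyte markers 65503 and 71868 against 40177 to 45885. The number in the title of BDL_KO_2248 lies closer to those of the wild-type libraries than to those of the other knockout libraries, while its Tmem173 level was the lowest of the BDL_KO group, and it was kept in its labelled group. Many results that rest on the ligated knockout group are therefore also given without BDL_KO_2359 and BDL_KO_2248, a choice made after seeing the data. The others are given with all libraries only. In bulk tissue, fewer cells of a type and less RNA per cell cannot be told apart.

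Ligation was called to change fewer genes in knockout than in wild-type liver with all libraries, and few single genes passed the test of the difference. In wild type 2544 genes rose (18.1%) and 2467 fell (17.5%), and in the knockout 1725 rose (12.3%) and 1809 fell (12.9%), by limma with adjusted p under 0.05. Without BDL_KO_2359 and BDL_KO_2248, 2641 rose and 2558 fell in the knockout, so the number called there depended on these libraries. All groups share a variance per gene in the fit, so wild-type counts can change too. Those of the fit without these libraries are not given here, and the genotypes cannot be compared in it. The interaction was called for 53 genes, which is 0.377% of those tested, 22 with a higher response in the knockout (0.156%) and 31 with a lower one (0.22%). Before adjustment, 777 genes were higher (5.53%) and 991 lower (7.05%) at p under 0.05. The called interactions measured 0.57 to 3.32 log2 units in size, 34 of them at least 1, with limma adjusted p from 0.0114 to 0.0496.

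By the calls in each genotype, 32 of the 53 responses were lost, meaning that the gene was called in wild type and not in the knockout, where its change was smaller. Of these, 22 were rises and 10 were falls in wild type. Among the rises, Tlr9 and Gm33782 passed the filter on level only through the BDL_Wt libraries. A further 5 were weakened, called in both genotypes in the same direction but smaller in the knockout. Another 9 were gained, called in the knockout alone, of which 5 rose and 4 fell. In 6 genes the direction was reversed, with 5 falling in wild type and rising in the knockout, and Acsl3 alone was strengthened. A response counted as lost was not shown to be absent, since a p that misses the threshold does not show that a gene did not change.

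**Figure D1:**
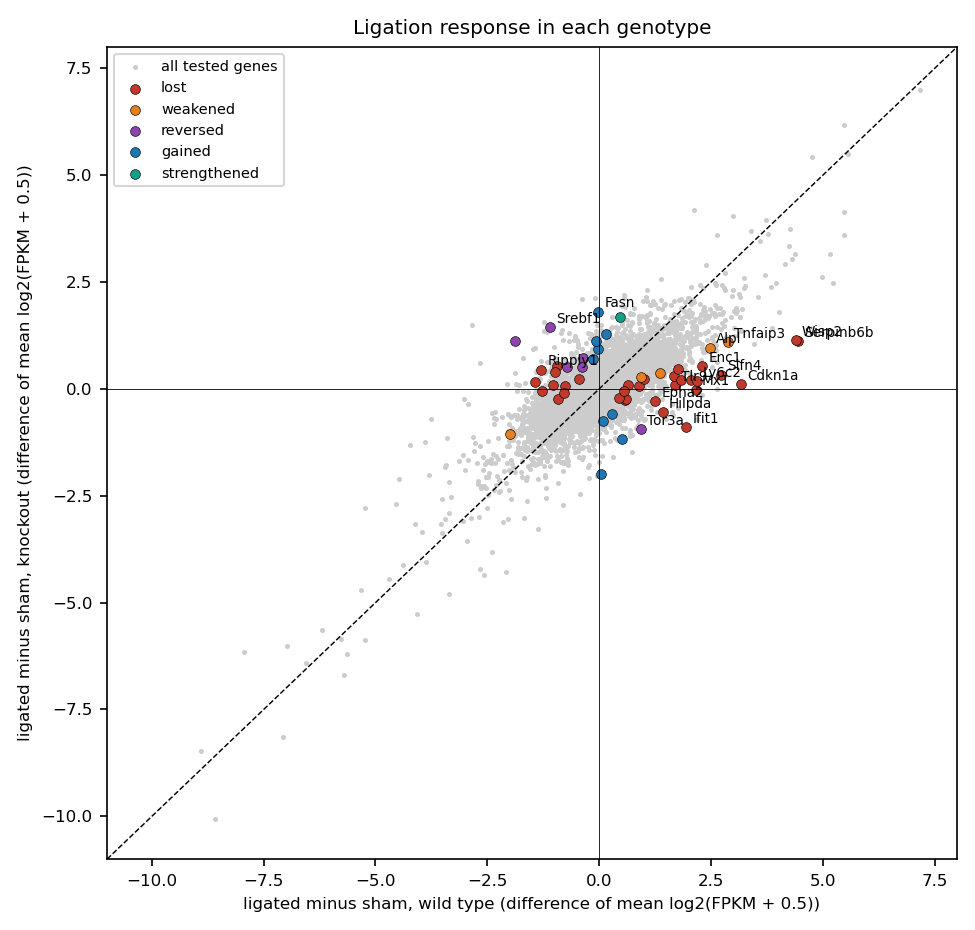
Ligation response in wild type (x axis) against knockout (y axis), each as ligated minus sham in log2 units, for 14059 tested genes (grey) and the 53 genes called for the interaction (coloured by class). The dashed line marks equal responses. Most called genes to the lower right rose in wild type and stayed near 0 in the knockout, while Srebf1 and Fasn lie above the line.

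The number of calls depended on single libraries. Leaving out 1 library gave between 8 calls, without BDL_Wt_2236, and 151, without BDL_KO_2370, and the count stayed within 1.5 times of 53 without BDL_KO_2248, BDL_Wt_2235 or Sham_KO_2347 but in none of the other 17 omissions. With BDL_KO_2359 and BDL_KO_2248 both left out, 178 genes were called, 113 higher and 65 lower, and 48 of the 53 were among them. Of these 48, 9 then fell in another class. Tor3a and Gm15998 went from reversed to lost, Serpinb6b, Wisp2, Enc1 and Gm36161 from lost to weakened, Ivns1abp from weakened to lost, and Odc1 and Nup62 became reversed. With library type, meaning Y-linked transcripts or Xist, as a covariate 52 genes were called, 44 of the 53 among them, and the 9 that lost their call were Ifit1, Tnfaip3, Camk1d, Odc1, Bid, Rbpms, Ivns1abp, D5Ertd579e and Gm36161. Every group held both types, with Xist in 3 Sham_Wt, 2 Sham_KO, 2 BDL_Wt and 3 BDL_KO libraries. Library type was therefore partly confounded with the interaction. All 53 kept their sign in each omission, and 7 were called in all 20, namely Epha2, Acaca, Fasn, Pde4b, Tlr9, Srebf1 and the antisense transcript Gm15998. The genes tested were the same in every omission, also where a gene such as Tlr9 passed the filter only through BDL_Wt. The share of higher calls was 41.5% as deposited, 57.1% of 7 calls as TPM and 72.7% of 22 calls with voom on recovered fragments.

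**Figure D2:**
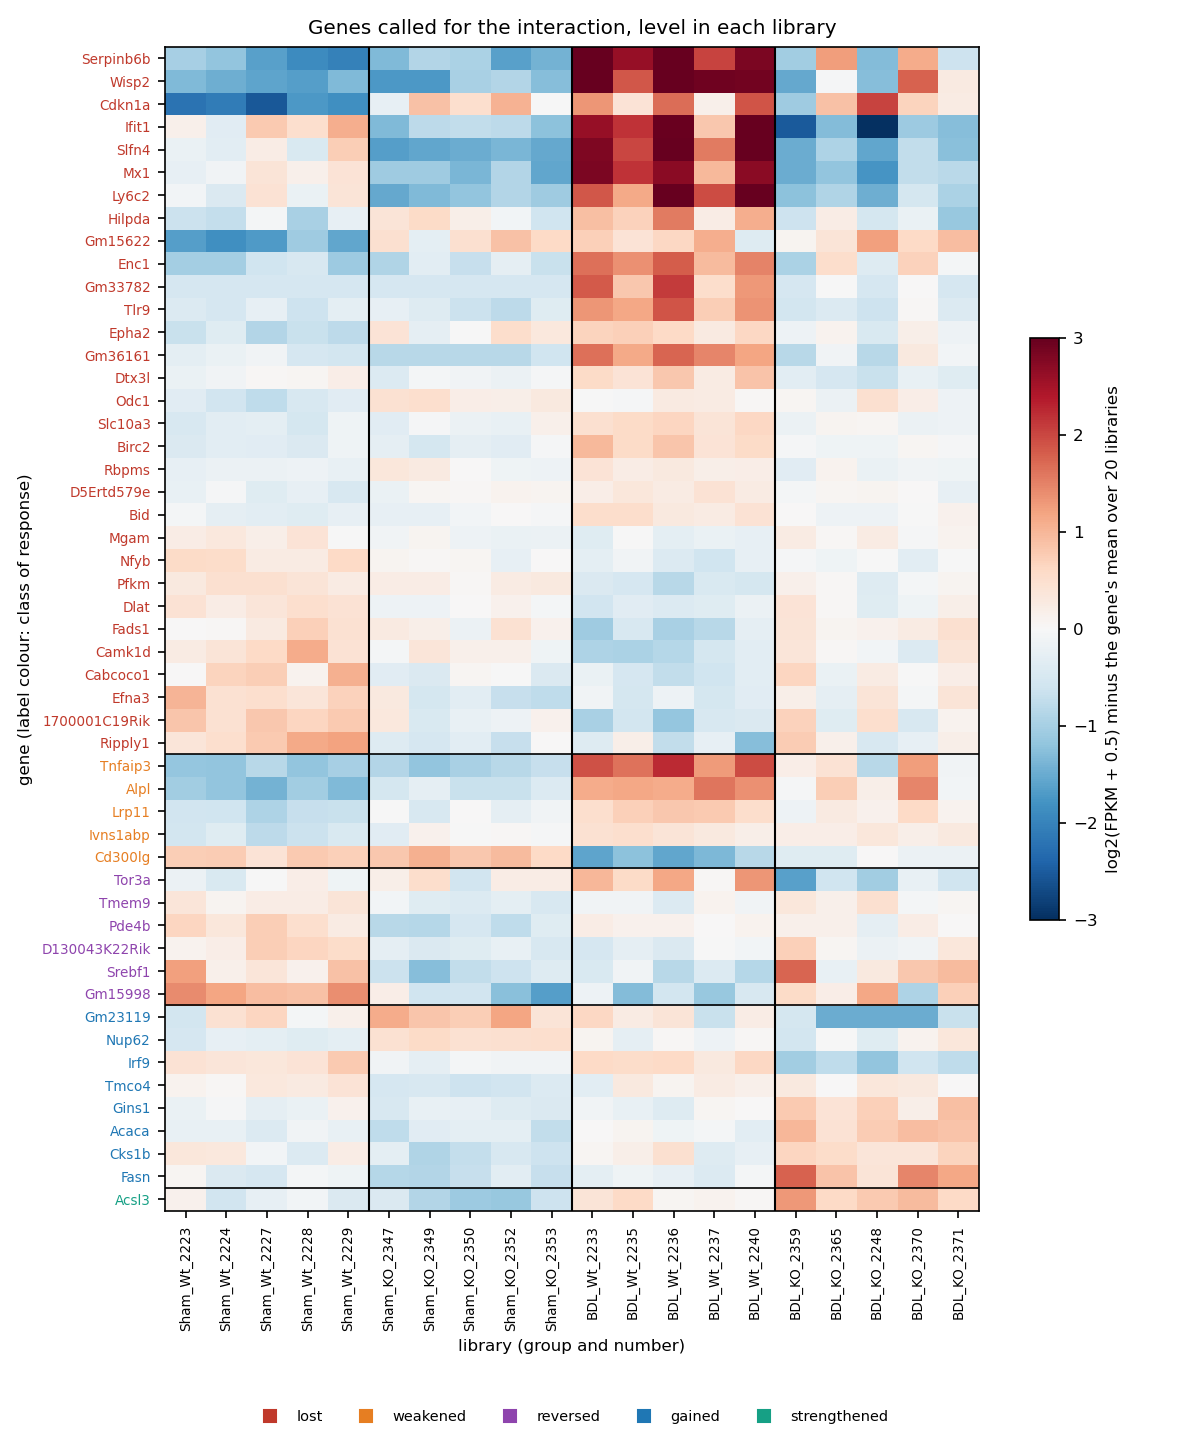
Level of 51 of the 53 called genes (rows, labels coloured by class of response) in each of the 20 libraries (columns, in group order), as log2(FPKM + 0.5) minus the gene's mean over all libraries. Rows such as Ifit1, Mx1 and Slfn4 are high in BDL_Wt alone and lowest in the knockout groups, and BDL_Wt_2237 is paler than the other BDL_Wt libraries in these rows.

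The genes called with a higher response in the knockout included 5 of fatty acid synthesis and activation. Srebf1, Fasn, Acaca, Acsl3 and Fads1 had higher responses to ligation in the knockout, and the first 3 were called in every omission of 1 library. With the values as TPM, Srebf1 kept its call and Fasn, Acaca, Acsl3 and Fads1 lost theirs. Acsl3 and Fads1 also lost theirs without the filter on level and with total fragment scaling. Fads1 lost its call with quantile normalization and voom as well. Srebf1 encodes SREBP-1, the transcription factor that activates lipogenic genes in response to insulin and liver X receptors. Acaca encodes acetyl-CoA carboxylase, which makes malonyl-CoA, and Fasn encodes the synthase that builds palmitate from it.

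Srebf1 (ENSMUSG00000020538, chromosome 11, 60199089 to 60222581 on the minus strand; gene positions are those of GENCODE M21 on GRCm38) measured 63.1, 29.6, 34.3, 28.8 and 49.2 FPKM in Sham_Wt and 19.0, 24.5, 14.7, 19.6 and 14.3 in BDL_Wt. In the knockout it measured 16.6, 10.7, 15.5, 17.1 and 20.1 FPKM after sham surgery and 89.8, 22.7, 32.3, 46.6 and 51.2 after ligation. It was thus lower after ligation in every wild-type library and higher after ligation in every knockout library, with no overlap in either genotype. Srebf1 fell by 1.09 ± 0.29 in wild type (limma adjusted p = 0.00696) and rose by 1.45 ± 0.29 in the knockout (limma adjusted p = 0.00171), an interaction of 2.54 ± 0.42 (limma adjusted p = 0.0171). The highest value, 89.8 FPKM, came from BDL_KO_2359, and without that library and BDL_KO_2248 the interaction was 2.34 (limma adjusted p = 0.0126).

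Fasn (ENSMUSG00000025153, chromosome 11, 120805846 to 120824547 on the minus strand) measured 45.05, 32.1, 30.4, 41.9 and 39.7 FPKM in Sham_Wt and 35.1, 39.6, 36.4, 32.5 and 41.5 in BDL_Wt, groups that overlapped. In Sham_KO it measured 23.9, 23.5, 26.8, 35.01 and 26.5 FPKM, and in BDL_KO 148, 79.2, 56.9, 121 and 98.1. All 5 ligated knockout libraries lay above the other 15. The change was -0.019 ± 0.20 in wild type and 1.81 ± 0.20 in the knockout, an interaction of 1.83 ± 0.28 (limma adjusted p = 0.0119, and 0.00119 without BDL_KO_2359 and BDL_KO_2248).

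Acaca (ENSMUSG00000020532, chromosome 11, 84129672 to 84401651 on the plus strand) measured 4.72, 4.70, 4.04, 5.13 and 4.65 FPKM in Sham_Wt and 5.56, 5.90, 5.03, 5.34 and 4.38 in BDL_Wt. Its levels were 3.07, 4.31, 4.47, 4.45 and 3.11 FPKM in Sham_KO and 11.5, 7.72, 9.80, 11.0 and 10.4 in BDL_KO, where again every library lay above all others. The interaction was 1.12 ± 0.17 (limma adjusted p = 0.0119), with a change of 0.15 ± 0.12 in wild type and 1.28 ± 0.12 in the knockout.

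Acsl3 (ENSMUSG00000032883, chromosome 1, 78657825 to 78707743 on the plus strand), which activates long-chain fatty acids on the endoplasmic reticulum and on lipid droplets, was the only strengthened response. Its levels were 7.78, 4.58, 5.85, 6.59 and 5.08 FPKM in Sham_Wt, 9.29, 10.9, 7.34, 7.58 and 7.25 in BDL_Wt, 5.12, 3.59, 3.05, 2.93 and 4.40 in Sham_KO and 18.0, 10.9, 12.5, 14.1 and 10.9 in BDL_KO. Both genotypes rose, wild type by 0.47 ± 0.17 and the knockout by 1.67 ± 0.17, with an interaction of 1.199 ± 0.24 (limma adjusted p = 0.0342). Fads1, the delta-5 desaturase of polyunsaturated fatty acid synthesis, is a lost fall. It went from 129 to 208 FPKM to 60.6 to 105 in wild type and from 113 to 174 to 133 to 177 in the knockout, so the wild-type groups were apart and the knockout groups overlapped (interaction 1.12 ± 0.23, limma adjusted p = 0.0397). Acsl3 was called in 7 of the 20 omissions of 1 library and Fads1 in 6, with adjusted p of up to 0.0799 and 0.1002.

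Of 25 tested genes of lipogenesis and lipid droplets, 4 were called higher and 0 lower for the interaction, and 13 were higher and 4 lower at an unadjusted p under 0.05. These counts depend on the choice of members, since Acsl3, called higher, and the lipid droplet gene Hilpda were not on the list. Hilpda was called lower (interaction -1.96 ± 0.38, limma adjusted p = 0.0342). The median interaction of the list was 0.68, against -0.0028 over all genes, and without BDL_KO_2359 and BDL_KO_2248 it was 0.95 with 6 called. Acacb, the mitochondrial acetyl-CoA carboxylase that restrains fatty acid oxidation, had mean levels of 13.2 FPKM in Sham_Wt, 3.88 in BDL_Wt, 17.6 in Sham_KO and 15.9 in BDL_KO, and passed only without those libraries (limma adjusted p = 0.103 with all and 0.0321 without them). Acly, the ATP citrate lyase that supplies acetyl-CoA, did the same (interaction 1.37 ± 0.41, limma adjusted p = 0.168 with all and 0.0321 without). Scd1, the stearoyl-CoA desaturase, had an interaction of 2.24 ± 0.63 that did not pass in either set (limma adjusted p = 0.140 and 0.0991). The 4 members on the lower side included Plin2 and Plin5, which coat lipid droplets, at -1.10 ± 0.48 and -0.997 ± 0.35, and neither was called (limma adjusted p = 0.341 and 0.224).

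The bases upstream of Srebf1, Fasn and Acsl3 are shown because all 3 were higher after ligation in the knockout and share a short motif. The 250 bases listed for Acaca do not hold it. Those bases, chr11:84195188-84195437, lie inside the gene, and the ones before its annotated start at 84129672 were not among those searched. The wild-type responses of the genes shown differed, from a fall of Srebf1 to a rise of Acsl3. The CCAAT box, searched as CCAAT on both strands in the 250 bases before each annotated start (RefSeq, GRCm38.p6), was present in 33.8% of 32851 promoters, or for at least 1 start in 37.5% of 27025 genes. Promoters were found for 39 of the 53 called genes, and the motif was present in 8 of 18 genes with a higher response in the knockout (44.4%) and in 1 of 21 with a lower response (4.76%). The sterol element TCACNCCAC was searched the same way and does not overlap the CCAAT box in letters. It was present in 1.05% of promoters, or for at least 1 start in 1.22% of genes. Among the called genes it was present in 2 of the 18 and none of the 21. The 2 were Camk1d and 1700001C19Rik, so Srebf1, Fasn and Acsl3 had none in this window. The E-box CACGTG was present in 6.02% of promoters, or for at least 1 start in 6.86% of genes. It was present in 2 of the 18 and 2 of the 21 genes. A match describes the letters only. Each sequence below is written 5′ to 3′ on the gene's strand and ends just before the start, with the CCAAT box of either strand in capitals.
Fasn, minus strand, chr11:120824548-120824797: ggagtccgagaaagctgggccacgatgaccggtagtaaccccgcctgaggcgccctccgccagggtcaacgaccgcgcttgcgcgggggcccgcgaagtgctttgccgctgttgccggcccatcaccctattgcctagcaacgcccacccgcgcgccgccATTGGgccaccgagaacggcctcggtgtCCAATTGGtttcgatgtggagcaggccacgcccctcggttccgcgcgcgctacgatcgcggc
Srebf1, first start, minus strand, chr11:60222582-60222831: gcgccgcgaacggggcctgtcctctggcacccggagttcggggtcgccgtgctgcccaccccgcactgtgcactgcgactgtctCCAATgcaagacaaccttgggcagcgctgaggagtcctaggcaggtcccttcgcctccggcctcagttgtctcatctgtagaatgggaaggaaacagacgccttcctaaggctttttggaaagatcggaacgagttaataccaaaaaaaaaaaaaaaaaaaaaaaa
Srebf1, downstream start, minus strand, chr11:60210472-60210721: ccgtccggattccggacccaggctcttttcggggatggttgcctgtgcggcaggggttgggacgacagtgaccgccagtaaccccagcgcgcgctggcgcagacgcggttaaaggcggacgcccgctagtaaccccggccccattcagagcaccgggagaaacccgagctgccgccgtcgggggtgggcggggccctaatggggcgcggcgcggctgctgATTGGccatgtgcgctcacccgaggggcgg
Acsl3, plus strand, chr1:78657575-78657824: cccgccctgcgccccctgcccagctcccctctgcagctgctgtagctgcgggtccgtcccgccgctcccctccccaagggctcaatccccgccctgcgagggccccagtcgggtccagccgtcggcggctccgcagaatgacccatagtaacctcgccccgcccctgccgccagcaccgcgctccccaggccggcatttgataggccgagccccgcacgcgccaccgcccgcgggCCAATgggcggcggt

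In Fasn the boxes began 90, 62 and 59 bases before the start, and the last 2 face each other across the shared letters. In Srebf1 a box lay 166 bases before the first start and 30 before the downstream start. Another annotated start of Srebf1 lies between these, and its upstream bases (chr11:60220628-60220877, not shown) held 0 boxes. In Acsl3 a box lay 15 bases before the start.

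Genes of cholesterol synthesis, which the related factor SREBP-2 activates when sterols are low, rose more often in the knockout, but none passed the test of the interaction. Of 25 tested members 10 rose and 3 fell with ligation in wild type, and 20 rose and none fell in the knockout. All 25 interactions were above 0, with a median of 0.80, and 14 were higher and none lower at an unadjusted p under 0.05. Insig1, which holds SREBP precursors in the endoplasmic reticulum, had an interaction of 1.46 ± 0.46 that did not pass (limma adjusted p = 0.182). Without BDL_KO_2359 and BDL_KO_2248 the median of the list was 0.43 and 1 member was called, the desaturase Sc5d (interaction 1.37, limma adjusted p = 0.0387).

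The other reversed responses were of different kinds. Pde4b, a phosphodiesterase that breaks down cyclic AMP, measured 2.78, 2.17, 3.03, 2.48 and 1.99 FPKM in Sham_Wt and 1.94, 1.804, 1.81, 1.63 and 1.77 in BDL_Wt. In Sham_KO it measured 0.689, 0.666, 0.983, 0.740 and 1.13 FPKM, below every wild-type library, and in BDL_KO 1.83, 1.83, 1.25, 1.96 and 1.61. The genotypes were therefore apart after sham surgery, by -1.16 ± 0.12 (limma adjusted p = 0.000140), and overlapped after ligation. Ligation lowered Pde4b by 0.37 ± 0.12 in wild type and raised it by 0.71 ± 0.12 in the knockout (interaction 1.09 ± 0.17, limma adjusted p = 0.0138), a call made in all 20 omissions of 1 library.

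Tmem9, a lysosomal membrane protein, went from 7.01 ± 0.636 to 5.30 ± 0.702 FPKM (mean ± SD, n = 5) in wild type and from 4.55 ± 0.536 to 6.75 ± 1.12 in the knockout (interaction 0.89 ± 0.16, limma adjusted p = 0.0233). It lost its call without Sham_Wt_2229, Sham_KO_2350, BDL_Wt_2233 or BDL_Wt_2236, with an adjusted p of up to 0.0617. Gm15998, an antisense transcript, had an interaction of 3.00 ± 0.50 (limma adjusted p = 0.0187), from 3.30 ± 0.643 to 0.565 ± 0.344 FPKM in wild type and from 0.586 ± 0.545 to 1.86 ± 1.06 in the knockout. It lies inside Efna3, an ephrin ligand gene that was called as well (interaction 1.46 ± 0.28, limma adjusted p = 0.0322). The sources used here do not say whether the counting used strand, so reads of these 2 genes cannot be told apart, and both were named after their values were seen. D130043K22Rik, an uncharacterised gene also named on its values, had an interaction of 1.23 ± 0.23 (limma adjusted p = 0.0322).

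Tor3a was, with all libraries, the only called gene that rose in wild type and fell in the knockout. It encodes a torsin ATPase of the endoplasmic reticulum, and the gene is known as interferon-responsive. Its levels were 4.30, 3.47, 4.95, 5.72 and 4.48 FPKM in Sham_Wt and 10.3, 7.67, 11.7, 5.08 and 13.1 in BDL_Wt, then 5.66, 7.34, 3.18, 5.89 and 5.82 in Sham_KO and 1.27, 3.07, 2.13, 4.15 and 3.11 in BDL_KO. The lowest BDL_Wt value, 5.08 FPKM in BDL_Wt_2237, lay within the range of Sham_Wt. The responses were 0.94 ± 0.26 in wild type and -0.94 ± 0.26 in the knockout, with an interaction of -1.87 ± 0.37 (limma adjusted p = 0.0342), called in 6 of 20 omissions. Without BDL_KO_2359 and BDL_KO_2248 Tor3a counted as a lost rise (interaction -1.53, limma adjusted p = 0.0406).

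A pair of genes of DNA replication and cell division rose with ligation in the knockout alone. Cks1b encodes a small subunit of cyclin-dependent kinases, and Gins1 a part of the helicase that opens replication origins. Cks1b measured 4.29, 4.16, 3.07, 2.33 and 3.90 FPKM in Sham_Wt, 3.40, 3.74, 4.73, 2.36 and 2.67 in BDL_Wt, 2.56, 1.51, 1.78, 2.20 and 1.93 in Sham_KO and 5.39, 4.98, 4.30, 4.33 and 5.45 in BDL_KO. Wild-type groups overlapped throughout, and knockout levels were higher after ligation in every library (interaction 1.19 ± 0.23, limma adjusted p = 0.0342). Gins1 measured 1.65 to 2.37 FPKM in Sham_Wt, 1.48 to 2.22 in BDL_Wt, 1.38 to 1.73 in Sham_KO and 2.46 to 4.37 in BDL_KO, with all BDL_KO libraries above the other 15 (interaction 0.96 ± 0.18, limma adjusted p = 0.0322). Cks1b was called in 8 and Gins1 in 9 of the 20 omissions.

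None of the 22 other cell cycle genes on the list was called with all libraries, though all 22 interactions were above 0, with a median of 0.64, and 2 were higher at an unadjusted p under 0.05. This list depended on the libraries that stand apart. Without BDL_KO_2359 and BDL_KO_2248 the median was 1.63, 20 of 22 rose with ligation in the knockout in place of 3, and 11 were called higher. Mcm5, a subunit of the replicative helicase, had means of 1.62, 2.01, 0.653 and 4.59 FPKM in Sham_Wt, BDL_Wt, Sham_KO and BDL_KO, and its interaction went from 1.17 ± 0.75 (limma adjusted p = 0.572) to 2.37 (limma adjusted p = 0.0101). Mki67, the proliferation marker, went from 1.02 ± 0.72 (limma adjusted p = 0.615) to 2.15 (limma adjusted p = 0.0126).

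Several falls of wild-type liver were smaller in the knockout. Cd300lg, a mucin-like receptor of endothelial cells, measured 5.87, 6.02, 4.62, 6.06 and 5.80 FPKM in Sham_Wt and 0.774, 1.13, 0.802, 1.01 and 1.65 in BDL_Wt. The knockout had 6.16, 7.501, 6.15, 6.89 and 5.30 FPKM after sham surgery and 2.46, 2.48, 3.35, 2.88 and 2.87 after ligation. All BDL_KO libraries lay above all BDL_Wt libraries and below both sham groups. Cd300lg fell by 1.99 ± 0.13 in wild type and by 1.06 ± 0.13 in the knockout (interaction 0.93 ± 0.18, limma adjusted p = 0.0342). Summed markers of sinusoidal endothelium were 34.3 to 52.3 FPKM in BDL_Wt and 44.9 to 85.1 in BDL_KO, and 13 of the 15 tested markers fell in wild type and 10 in the knockout. None of these 15 was called for the interaction and their median was 0.36. With BDL_KO_2359 and BDL_KO_2248 left out, 7 fell in the knockout, 2 were called higher and the median was 0.64. Their part in the result for Cd300lg was not tested.

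Camk1d, a calcium-dependent kinase, went from 15.7 to 29.4 FPKM to 6.60 to 10.5 in wild type and from 12.1 to 17.0 to 9.75 to 17.4 in the knockout (interaction 1.24 ± 0.25, limma adjusted p = 0.0351). Its fall was complete, in that no ligated wild-type library reached the lowest sham library, whereas the knockout groups overlapped. Ripply1, a transcriptional corepressor, went from 2.54 ± 0.784 to 0.777 ± 0.463 FPKM in wild type and from 0.830 ± 0.254 to 1.38 ± 0.639 in the knockout, levels that rest on few fragments (interaction 1.75 ± 0.36, limma adjusted p = 0.0397). Dlat, a subunit of the pyruvate dehydrogenase complex, went from 12.6 ± 0.939 to 7.23 ± 0.756 FPKM in wild type and from 9.22 ± 0.834 to 9.85 ± 2.08 in the knockout (interaction 0.84 ± 0.16, limma adjusted p = 0.0342). Pfkm, a phosphofructokinase of glycolysis, and Nfyb, a subunit of the CCAAT-binding factor NF-Y, were also lost falls, with interactions of 0.70 ± 0.14 and 0.69 ± 0.14 (limma adjusted p = 0.0351 and 0.0397), and these 2 were named after their values were seen. Nfyb was not called without BDL_KO_2359 and BDL_KO_2248 (limma adjusted p = 0.0564).

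Most interferon-stimulated genes on the list rose in wild type, and few were called in the knockout. In wild type 36 of 45 tested members rose with ligation and none fell, whereas in the knockout 1 rose and 2 fell. The interaction was called for 4 members, all lower, namely Irf9, Mx1, Dtx3l and Ifit1. Mx1, Dtx3l and Ifit1 were lost rises, and Irf9 was not. In the 20 omissions of 1 library Irf9 and Mx1 were called in 8, Dtx3l in 6 and Ifit1 in 3. All 4 lost their call with the values as TPM and without the filter on level. At an unadjusted p under 0.05, 38 members were lower and none higher. The median interaction was -0.95, with 44 of 45 members below 0, and the members are not independent of each other.

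Mx1 (ENSMUSG00000000386, chromosome 16, 97447035 to 97462907 on the minus strand), an antiviral dynamin-like GTPase, measured 1.43, 1.64, 2.52, 2.08 and 2.57 FPKM in Sham_Wt and 15.8, 9.88, 14.52, 4.02 and 14.6 in BDL_Wt. In the knockout it measured 0.609, 0.601, 0.392, 0.755 and 0.280 FPKM after sham surgery and 0.317, 0.512, 0.175, 0.883 and 0.818 after ligation. Each wild-type library, sham or ligated, lay above each knockout library, and within the knockout the sham and ligated ranges overlapped. Mx1 rose by 2.15 ± 0.29 in wild type and changed by -0.013 ± 0.29 in the knockout, an interaction of -2.17 ± 0.41 (limma adjusted p = 0.0322). Without BDL_KO_2359 and BDL_KO_2248 the interaction was -1.88 (limma adjusted p = 0.0418). The gap between genotypes widened from -1.31 ± 0.29 after sham surgery to -3.48 ± 0.29 after ligation.

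Ifit1 (ENSMUSG00000034459, chromosome 19, 34640871 to 34650009 on the plus strand), which binds viral RNA lacking a host cap, measured 11.1, 7.61, 17.2, 14.3 and 21.6 FPKM in Sham_Wt and 62.4, 46.1, 80.4, 17.5 and 109 in BDL_Wt. Its values were 3.63, 5.51, 5.68, 5.55 and 3.89 FPKM in Sham_KO and 1.31, 3.67, 0.719, 4.39 and 3.75 in BDL_KO. BDL_Wt_2237, at 17.5 FPKM, fell within the Sham_Wt range, and the other 4 ligated wild-type libraries lay well above it. The response was 1.95 ± 0.43 in wild type and -0.88 ± 0.43 in the knockout (interaction -2.83 ± 0.61, limma adjusted p = 0.0496). The call was made in 3 of 20 omissions of 1 library and not without BDL_KO_2359 and BDL_KO_2248 (interaction -2.20, limma adjusted p = 0.0688).

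The promoter of Ifit1 is shown because it is the only one among the 21 called genes with a lower response that holds the core of the element bound by interferon regulatory factors. That core, searched as GAAANNGAA on both strands, was present in 7.13% of the 32851 promoters, or for at least 1 start in 8.18% of 27025 genes. It was present in 1 of the 21 genes (4.76%) and in 1 of 18 with a higher response (5.56%), Tmco4. Both shares lay below that of all genes, so the core did not mark the called genes. In Ifit1 it began 109, 103 and 84 bases before the start. The first 2 overlap. All 3 lie on the opposite strand and are in capitals as they read on the gene's strand.
Ifit1, plus strand, chr19:34640639-34640888: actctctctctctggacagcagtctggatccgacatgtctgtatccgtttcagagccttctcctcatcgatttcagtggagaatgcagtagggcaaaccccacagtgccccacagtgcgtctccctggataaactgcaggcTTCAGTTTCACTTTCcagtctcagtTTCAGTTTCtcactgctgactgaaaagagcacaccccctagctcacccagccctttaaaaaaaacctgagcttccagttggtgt

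Irf9 (ENSMUSG00000002325, chromosome 14, 55603571 to 55610030 on the plus strand), the DNA-binding subunit of the interferon-activated factor ISGF3, behaved differently from Mx1 and Ifit1. It measured 13.3, 12.8, 12.5, 13.1 and 17.2 FPKM in Sham_Wt and 15.2, 14.7, 15.2, 12.1 and 15.4 in BDL_Wt, ranges that overlapped. In Sham_KO it measured 9.08, 8.01, 9.39, 9.13 and 9.05 FPKM and in BDL_KO 4.46, 5.55, 4.06, 6.32 and 5.54, so that every ligated knockout library was below every sham knockout library, and those in turn were below all wild-type libraries. The change was 0.075 ± 0.11 in wild type and -0.74 ± 0.11 in the knockout, a gained fall (interaction -0.82 ± 0.15, limma adjusted p = 0.0322). Without BDL_KO_2359 and BDL_KO_2248 the interaction of Irf9 was -0.66 (limma adjusted p = 0.0353). Dtx3l, an ubiquitin ligase that works with Parp9, rose in wild type by 0.58 ± 0.12 and changed by -0.26 ± 0.12 in the knockout (interaction -0.84 ± 0.17, limma adjusted p = 0.0342). BDL_Wt libraries held 16.0 to 24.3 FPKM of Dtx3l, above the 8.17 to 11.3 of BDL_KO. Its neighbour Parp9, which overlaps it and cannot be told apart without strand, had an interaction of -0.80 ± 0.20 and was not called (limma adjusted p = 0.122).

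Slfn4, a Schlafen gene of myeloid cells, was also lost and is interferon-responsive by background knowledge. It measured 0.873, 0.777, 1.35, 0.648 and 2.14 FPKM in Sham_Wt, 10.5, 5.87, 18.7, 4.14 and 19.0 in BDL_Wt, 0, 0.0358, 0.0651, 0.112 and 0.0471 in Sham_KO and 0.0673, 0.340, 0.0370, 0.456 and 0.167 in BDL_KO. All knockout values were under 0.5 FPKM and rest on few fragments (interaction -2.38 ± 0.47, limma adjusted p = 0.0342). Slfn4 was called in 7 of 20 omissions, and not with the values as TPM. Without BDL_KO_2359 and BDL_KO_2248 its interaction was -2.16 (limma adjusted p = 0.0496). Rsad2, the antiviral enzyme viperin, had an interaction of -2.91 ± 0.70 that did not pass (limma adjusted p = 0.0848), and neither did Isg15, a ubiquitin-like modifier, at -2.23 ± 0.68 (limma adjusted p = 0.172), or Usp18, which removes it, at -1.40 ± 0.37 (limma adjusted p = 0.130). Mx1, Ifit1 and Slfn4 belong to families of similar genes, and reads shared with paralogs make their single values uncertain.

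The summed level of the 45 interferon-stimulated genes was 835, 703, 1046, 953 and 1071 FPKM in Sham_Wt and 1363, 957, 1744, 754 and 2307 in BDL_Wt. In the knockout it was 452, 372, 365, 439.5 and 395 FPKM after sham surgery and 251, 425, 181, 424 and 442 after ligation. All BDL_KO libraries lay below all BDL_Wt libraries, BDL_KO_2359 and BDL_KO_2248 lay below the Sham_KO range, and BDL_Wt_2235 and BDL_Wt_2237 lay within the Sham_Wt range. Leaving out BDL_Wt_2237 gave 112 calls for the interaction in place of 53. Without BDL_KO_2359 and BDL_KO_2248, 11 of the 45 rose with ligation in the knockout and 1 fell, 3 were called lower for the interaction, and the median interaction was -0.70. After sham surgery 20 of the 45 were already lower in the knockout and after ligation 44 were, against 2.97% and 8.83% of all tested genes called in either direction. These counts and shares come from the fit of all groups. With only the compared groups in the fit, fewer of all tested genes differed after ligation than after sham surgery.

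Of 31 interferon gamma and antigen presentation genes none was called for the interaction, and 8 were lower and none higher at an unadjusted p under 0.05. Their median of -0.55 became 0.059 without BDL_KO_2359 and BDL_KO_2248. Of 12 tested genes of the cGAS-STING pathway 9 rose in wild type and 2 in the knockout, or 8 without those libraries, none was called for the interaction and 4 were lower at an unadjusted p under 0.05. Ifi204, a DNA-binding sensor, and Samhd1, a nucleotide phosphohydrolase, had the smallest p-values, with interactions of -1.02 ± 0.31 and -0.91 ± 0.28 (limma adjusted p = 0.165 and 0.177).

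**Figure D3:**
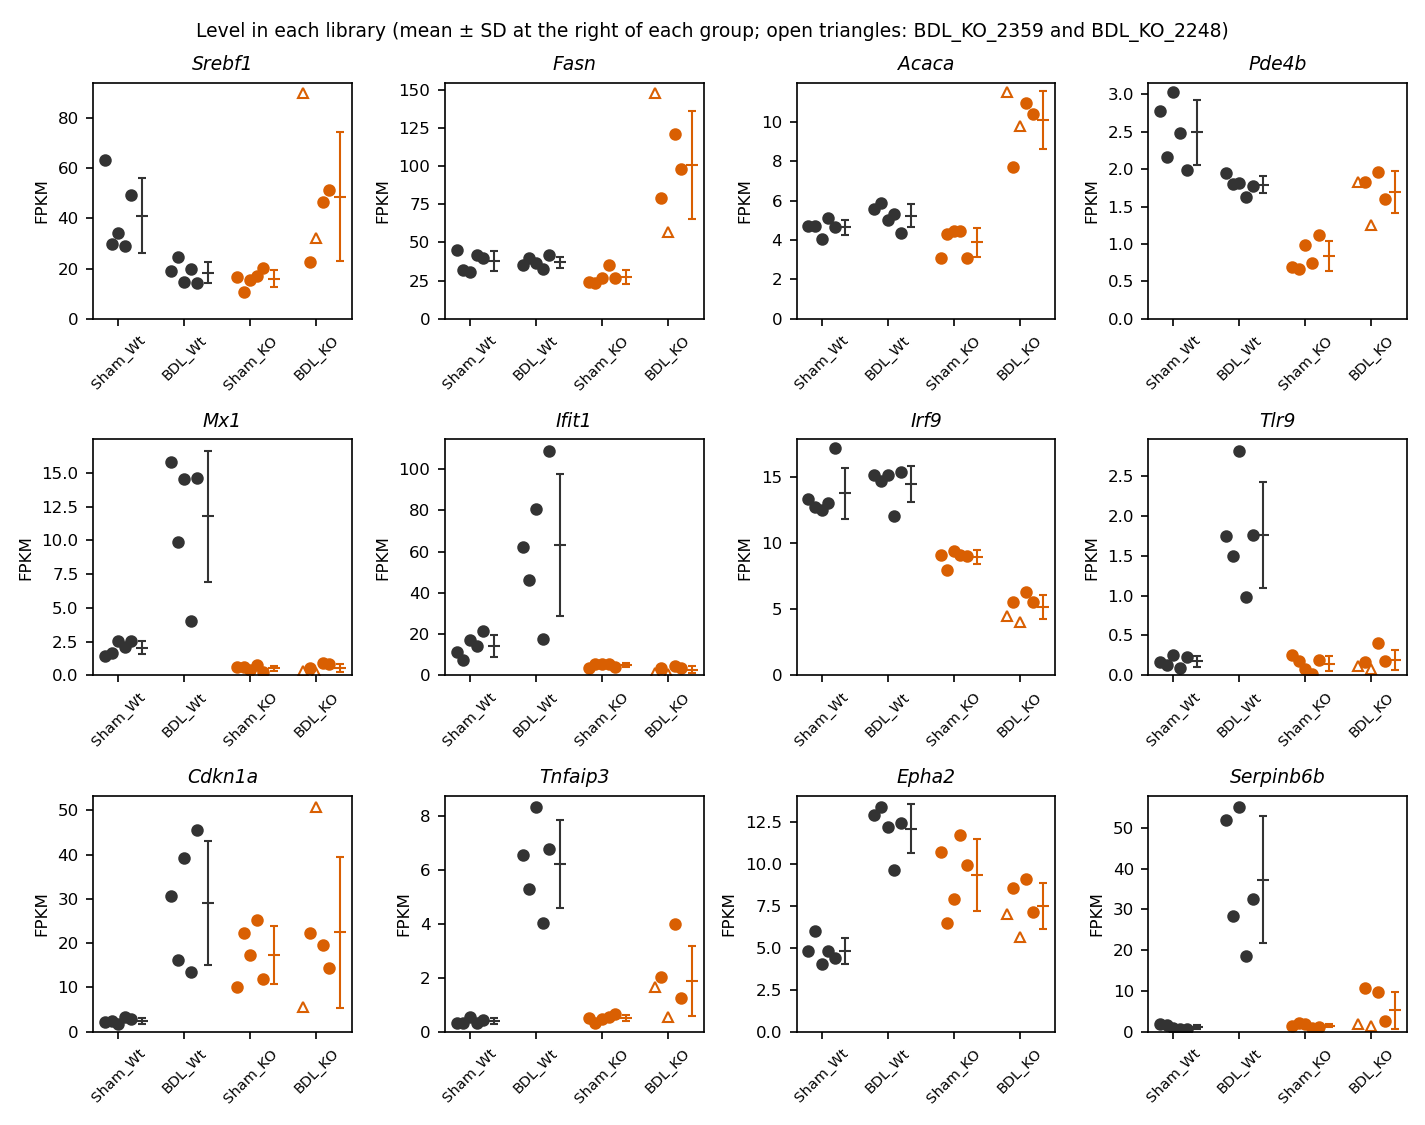
FPKM of 12 called genes in each library, by group, with mean ± SD beside the points (n = 5), wild type in grey and knockout in orange, and open triangles for BDL_KO_2359 and BDL_KO_2248. Fasn and Acaca are highest in all BDL_KO libraries, Mx1, Tlr9 and Tnfaip3 are highest in BDL_Wt, and Cdkn1a is already high in Sham_KO.

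The myeloid and innate sensing genes Tlr9 and Ly6c2 also counted as lost rises. Tlr9, the endosomal receptor for unmethylated CpG DNA, measured 0.169, 0.135, 0.257, 0.0858 and 0.230 FPKM in Sham_Wt and 1.74, 1.497, 2.82, 0.982 and 1.76 in BDL_Wt. It measured 0.248, 0.184, 0.0742, 0.0183 and 0.197 FPKM in Sham_KO and 0.115, 0.170, 0.0845, 0.409 and 0.175 in BDL_KO. The 5 ligated wild-type libraries lay above the other 15, which overlapped one another and hold only a few fragments of this gene. Tlr9 (ENSMUSG00000045322, chromosome 9, 106222598 to 106226883 on the plus strand) rose by 1.70 ± 0.18 in wild type and changed by 0.096 ± 0.18 in the knockout (interaction -1.60 ± 0.26, limma adjusted p = 0.0146), and was called in all 20 omissions. It passed the filter, 0.5 FPKM in at least 5 libraries, only through the BDL_Wt libraries where it was high. The omissions kept the tested genes fixed and so do not check that selection. With voom on recovered fragments Tlr9 was not called.

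Ly6c2, a surface protein of inflammatory monocytes, measured 0.930, 0.635, 1.54, 0.828 and 1.48 FPKM in Sham_Wt, 5.07, 2.87, 11.6, 5.36 and 12.0 in BDL_Wt, 0.0263, 0.104, 0.165, 0.325 and 0.227 in Sham_KO and 0.146, 0.315, 0.0536, 0.560 and 0.282 in BDL_KO. Every knockout library was below every wild-type library, but the near-identical Ly6c1 shares reads with it, so the value is uncertain (interaction -1.99 ± 0.42, limma adjusted p = 0.0397). Ly6c2 was called in 4 of 20 omissions and not without BDL_KO_2359 and BDL_KO_2248 (limma adjusted p = 0.0643).

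Other monocyte and macrophage genes rose in both genotypes. Of 21 tested markers 20 rose in wild type and 14 in the knockout, or 20 without BDL_KO_2359 and BDL_KO_2248. Of these 21, Ly6c2 alone was called for the interaction, and 11 were lower at an unadjusted p under 0.05. Cd14, the coreceptor for lipopolysaccharide, measured 1.37, 0.681, 2.81, 2.89 and 2.95 FPKM in Sham_Wt, 76.95, 66.4, 165, 55.5 and 130.0 in BDL_Wt, 3.34, 3.03, 2.26, 4.20 and 5.86 in Sham_KO and 7.77, 37.5, 17.0, 67.6 and 16.0 in BDL_KO, and its interaction of -2.74 ± 0.66 did not pass (limma adjusted p = 0.0848). Summed monocyte and macrophage markers were 557, 461, 601, 473 and 529 FPKM in BDL_Wt and 163, 398, 115, 478 and 304 in BDL_KO, and 93.6 to 162 in Sham_Wt and 105 to 171 in Sham_KO, with every marker detected. The part of these cells in the results for Tlr9, Ly6c2 and Slfn4 was not tested.

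Tnfaip3 encodes A20, a ubiquitin-editing enzyme that NF-kB induces and that limits NF-kB. It measured 0.334, 0.324, 0.553, 0.322 and 0.442 FPKM in Sham_Wt, 6.58, 5.31, 8.35, 4.03 and 6.80 in BDL_Wt, 0.528, 0.324, 0.464, 0.554 and 0.655 in Sham_KO and 1.66, 2.02, 0.549, 3.99 and 1.24 in BDL_KO. The rise was 2.88 ± 0.26 in wild type and 1.10 ± 0.26 in the knockout (interaction -1.78 ± 0.37, limma adjusted p = 0.0397), a weakened response with all BDL_KO libraries below all BDL_Wt libraries. Tnfaip3 was called in 4 of 20 omissions, and without BDL_KO_2359 and BDL_KO_2248 its interaction was -1.44 (limma adjusted p = 0.0387).

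Among 23 genes of cytokines, chemokines and NF-kB targets, Tnfaip3 alone was called for the interaction. Of these 23, 21 rose in wild type and 11 in the knockout, or 20 without BDL_KO_2359 and BDL_KO_2248, and 9 were lower at an unadjusted p under 0.05. The median went from -0.64 to -0.24 without those libraries. Nfkb2, a precursor subunit of the non-canonical pathway, had means of 3.45, 13.6, 3.39 and 6.51 FPKM in Sham_Wt, BDL_Wt, Sham_KO and BDL_KO (interaction -1.16 ± 0.40, limma adjusted p = 0.213). Il1rn, the interleukin-1 receptor antagonist, had an interaction of -1.48 ± 0.55 (limma adjusted p = 0.247). Birc2, a ubiquitin ligase of tumour necrosis factor signalling outside this list and named after its values were seen, was a lost rise, from 5.55 ± 0.539 to 11.8 ± 1.99 FPKM in wild type and from 5.74 ± 0.753 to 6.79 ± 0.393 in the knockout (interaction -0.78 ± 0.15, limma adjusted p = 0.0322).

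Cdkn1a encodes p21, a cell cycle inhibitor and p53 target. It counted as a lost rise too, but was already high in the knockout without ligation. It measured 2.21, 2.43, 1.66, 3.29 and 2.99 FPKM in Sham_Wt and 30.7, 16.2, 39.3, 13.5 and 45.6 in BDL_Wt. In Sham_KO it measured 10.0, 22.4, 17.3, 25.3 and 12.0 FPKM, above every Sham_Wt library, and in BDL_KO 5.50, 22.3, 50.8, 19.5 and 14.45, a spread that covered both the sham knockout and the ligated wild-type ranges. Cdkn1a (ENSMUSG00000023067, chromosome 17, 29090976 to 29100727 on the plus strand) rose by 3.17 ± 0.44 in wild type and changed by 0.12 ± 0.44 in the knockout (interaction -3.05 ± 0.62, limma adjusted p = 0.0355). The gap between genotypes was 2.51 ± 0.44 after sham surgery (limma adjusted p = 0.00499) and -0.53 ± 0.44 after ligation (limma adjusted p = 0.498). It was called in 6 of 20 omissions, and with an adjusted p of 0.0126 without BDL_KO_2359 and BDL_KO_2248, its lowest and highest ligated knockout libraries.

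Of the 25 tested genes of cell death and p53 targets, 17 rose in wild type and 10 rose and 1 fell in the knockout, or 15 and 1 with BDL_KO_2359 and BDL_KO_2248 left out. Cdkn1a was the only member called for the interaction, the median was -0.48, and 12 were lower and 1 higher at an unadjusted p under 0.05. Leaving out those libraries gave a median of -0.24, with 1 member called higher and 1 lower. The p53 targets Mdm2 and Ccng1 had interactions of -0.44 ± 0.15 and -0.67 ± 0.25 and did not pass (limma adjusted p = 0.216 and 0.248). Neither gene was raised in Sham_KO as Cdkn1a was, with means of 6.87 and 6.80 FPKM for Mdm2 and 10.1 and 11.5 for Ccng1 in Sham_Wt and Sham_KO. Bid, a BH3-only protein that links caspase 8 to mitochondria and was named after its values were seen, was a lost rise with the smallest called interaction, -0.57 ± 0.12 (limma adjusted p = 0.0397).

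The 2 largest interactions belonged to Serpinb6b, an intracellular serine protease inhibitor, and Wisp2, a secreted CCN family protein of connective tissue. Serpinb6b (ENSMUSG00000042842, chromosome 13, 32965209 to 32979067 on the plus strand) measured 1.88, 1.57, 1.03, 0.765 and 0.662 FPKM in Sham_Wt, 51.9, 28.3, 55.1, 18.7 and 32.6 in BDL_Wt, 1.37, 2.07, 1.94, 1.01 and 1.27 in Sham_KO and 1.799, 10.8, 1.40, 9.66 and 2.57 in BDL_KO. In 2 ligated knockout libraries, BDL_KO_2359 and BDL_KO_2248, it stayed within the sham range, and in the other 3 it rose above it. The response was 4.44 ± 0.43 in wild type and 1.12 ± 0.43 in the knockout (interaction -3.32 ± 0.61, limma adjusted p = 0.0322), and without those libraries the interaction was -2.61 (limma adjusted p = 0.0353).

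Wisp2 measured 0.204, 0.139, 0.0929, 0.0621 and 0.208 FPKM in Sham_Wt, 14.0, 5.87, 26.9, 12.7 and 12.6 in BDL_Wt, 0.0374, 0.0369, 0.402, 0.462 and 0.226 in Sham_KO and 0.104, 1.23, 0.229, 5.46 and 1.64 in BDL_KO. All sham libraries were under 0.5 FPKM, all BDL_KO libraries were below all BDL_Wt libraries, and the highest of the knockout came from BDL_KO_2370 (interaction -3.25 ± 0.66, limma adjusted p = 0.0351, and 0.0387 without BDL_KO_2359 and BDL_KO_2248). Serpinb6b was called in 9 and Wisp2 in 5 of the 20 omissions.

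Epha2, a receptor tyrosine kinase for ephrin-A ligands found on epithelial cells, had the smallest adjusted p of all genes. It measured 4.79, 6.02, 4.04, 4.82 and 4.36 FPKM in Sham_Wt and 12.9, 13.3, 12.2, 9.59 and 12.4 in BDL_Wt. Its levels were 10.7, 6.46, 7.87, 11.7 and 9.91 FPKM in Sham_KO and 7.02, 8.56, 5.62, 9.06 and 7.10 in BDL_KO. The knockout thus began higher than wild type, with no overlap of the sham groups, and ended lower, with no overlap of the ligated groups. Epha2 (ENSMUSG00000006445, chromosome 4, 141301240 to 141329384 on the plus strand) rose by 1.25 ± 0.15 in wild type and changed by -0.29 ± 0.15 in the knockout (interaction -1.54 ± 0.21, limma adjusted p = 0.0114), and was called in all 20 omissions.

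Enc1, an actin-binding adaptor of a ubiquitin ligase, and Alpl, the tissue-nonspecific alkaline phosphatase whose activity in serum rises in cholestasis, rose more in wild type. Enc1 measured 1.36 to 2.33 FPKM in Sham_Wt, 7.21 to 13.5 in BDL_Wt, 1.64 to 2.79 in Sham_KO and 1.55 to 5.94 in BDL_KO (interaction -1.77 ± 0.35, limma adjusted p = 0.0342). Alpl measured 2.77, 2.47, 1.99, 2.74 and 2.17 FPKM in Sham_Wt, 13.9, 14.4, 14.1, 20.1 and 16.8 in BDL_Wt, 4.12, 5.04, 3.69, 3.70 and 4.55 in Sham_KO and 6.02, 10.8, 7.06, 18.1 and 5.81 in BDL_KO. BDL_KO_2370 reached the wild-type range and the other 4 did not, and the weakened response (interaction -1.51 ± 0.31, limma adjusted p = 0.0383) was called in 3 of 20 omissions and not without BDL_KO_2359 and BDL_KO_2248 (limma adjusted p = 0.0569). Lrp11 and Ivns1abp were weakened too, with interactions of -0.99 ± 0.18 and -0.64 ± 0.14 (limma adjusted p = 0.0322 and 0.0416).

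Markers of bile duct cells and of matrix-producing stellate cells moved with BDL_KO_2359 and BDL_KO_2248, and none was called for the interaction with all libraries. All 15 tested cholangiocyte markers rose in wild type and 10 in the knockout, or 12 without those libraries, with 7 lower for the interaction at an unadjusted p under 0.05. Their median interaction went from -0.75 to -0.20 without them. Krt23, a keratin of reactive duct cells, had an interaction of -2.46 ± 0.69 (limma adjusted p = 0.137), and Sox9, a transcription factor of duct cells, measured 1.78, 1.42, 0.605, 0.606 and 1.05 FPKM in Sham_Wt, 9.25, 4.66, 14.2, 3.93 and 7.47 in BDL_Wt, 2.89, 3.37, 1.64, 1.49 and 1.72 in Sham_KO and 2.86, 4.90, 4.51, 8.42 and 2.63 in BDL_KO (interaction -1.45 ± 0.47, limma adjusted p = 0.196). Of 32 stellate cell and matrix genes 17 rose in wild type and 10 in the knockout, or 25 without those libraries, and the median interaction of -0.33 turned to 0.36. Col1a1, a chain of the main fibrillar collagen, had means of 15.0 FPKM in BDL_Wt and 13.1 in BDL_KO (interaction -0.92 ± 0.80, limma adjusted p = 0.697).

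Summed cholangiocyte markers were 581, 486, 638, 245 and 378 FPKM in BDL_Wt and 94.4, 589, 72.4, 354 and 368 in BDL_KO, against 29.4 to 34.99 in Sham_Wt and 37.1 to 43.2 in Sham_KO. Summed stellate cell and matrix markers were 218, 183, 264, 274 and 263 FPKM in BDL_Wt and 95.9, 322, 69.0, 371 and 299 in BDL_KO, against 105 to 139 and 108 to 148 in the sham groups. In both sums 3 ligated knockout libraries reached or passed the wild-type range and 2 fell short of it. Most of the cholangiocyte sum was the single gene Spp1, so this sum says little of the other markers. Spp1 measured 524, 439, 580, 200 and 334 FPKM in BDL_Wt and 73.6, 540, 55.2, 305 and 336 in BDL_KO. No defining marker of either list was at 0 in all libraries, and the part of these cells in the results for Serpinb6b, Wisp2, Epha2, Enc1 and Alpl was not tested.

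The lost rises included Hilpda and Odc1, and Nup62 was a gained fall. Hilpda, a lipid droplet protein that inhibits adipose triglyceride lipase, measured 1.60, 1.52, 2.65, 1.19 and 2.26 FPKM in Sham_Wt, 5.65, 4.87, 9.14, 3.34 and 6.47 in BDL_Wt, 3.79, 4.44, 3.22, 2.59 and 1.69 in Sham_KO and 1.63, 3.37, 1.798, 2.38 and 1.002 in BDL_KO (interaction -1.96 ± 0.38, limma adjusted p = 0.0342). It rose in wild type, with no overlap of its 2 groups, and the knockout groups overlapped. Odc1, the rate-limiting enzyme of polyamine synthesis, and Nup62, a nuclear pore protein, had their highest means in Sham_KO, at 25.0 ± 2.68 and 8.28 ± 0.308 FPKM against 13.9 ± 1.77 and 4.42 ± 0.344 in Sham_Wt, and were named after their values were seen (interactions -0.84 ± 0.17 and -0.87 ± 0.18, limma adjusted p = 0.0397 and 0.0372).

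Heat shock chaperones, which hold and refold unfolded proteins, included 5 of 15 tested members that were higher in Sham_KO than in Sham_Wt by limma, and none that was lower. Of all 14059 tested genes 184 were higher and 234 lower in this comparison. Of these 15 members 2 rose and 3 fell with ligation in wild type, and none rose and 10 fell in the knockout. None was called for the interaction with all libraries, 6 were lower and none higher at an unadjusted p under 0.05, and the median was -0.38, or -0.40 with 2 called lower without BDL_KO_2359 and BDL_KO_2248. Hspa8, the constitutive HSP70, measured 184, 172, 206, 241 and 233 FPKM in Sham_Wt, 247, 318, 263, 224 and 194 in BDL_Wt, 423, 443, 380.5, 412 and 416 in Sham_KO and 437, 187, 192, 261 and 245 in BDL_KO (interaction -0.98 ± 0.27, limma adjusted p = 0.133, and 0.0208 without those libraries). Every Sham_KO library lay above every Sham_Wt library. Hspb1, a small heat shock protein, had means of 19.6, 19.7, 51.7 and 18.3 FPKM in Sham_Wt, BDL_Wt, Sham_KO and BDL_KO, and an interaction of -1.61 ± 0.47 (limma adjusted p = 0.152).

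Further called genes were named after their values were seen, except Tmco4 and Cabcoco1. Tmco4, a membrane protein, was a gained rise (interaction 0.84 ± 0.15, limma adjusted p = 0.0322) that lost its call without any 1 of Sham_Wt_2227, Sham_Wt_2228, Sham_Wt_2229, Sham_KO_2350, Sham_KO_2352 and BDL_Wt_2236. Cabcoco1, Mgam, which digests starch in the gut, and 1700001C19Rik were lost falls, with interactions of 1.39 ± 0.28, 0.67 ± 0.13 and 1.60 ± 0.29 (limma adjusted p = 0.0342, 0.0328 and 0.0322). Slc10a3, Rbpms, an RNA-binding protein, and D5Ertd579e were lost rises, with interactions of -0.84 ± 0.14, -0.65 ± 0.14 and -0.61 ± 0.13 (limma adjusted p = 0.0214, 0.0406 and 0.0421). Slc10a3 lost its call without BDL_Wt_2236, and Rbpms without BDL_KO_2359 and BDL_KO_2248 (limma adjusted p = 0.0592).

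A further 4 called genes were predicted transcripts. Gm33782 was at 0 FPKM in all 10 sham libraries, at 2.05, 0.750, 2.53, 0.524 and 1.25 in BDL_Wt and at 0, 0.208, 0, 0.212 and 0 in BDL_KO. It entered the test only through the BDL_Wt libraries, so its low level in the other groups is partly a matter of selection. Gm36161 went from 0.203 ± 0.0933 to 1.91 ± 0.451 FPKM in wild type and from 0.0165 ± 0.0369 to 0.246 ± 0.248 in the knockout. Gm15622, like Cdkn1a, was higher in Sham_KO, at 2.04 to 5.21 FPKM against 0.366 to 0.979 in Sham_Wt, and did not differ beyond its spread after ligation, at 2.78 to 6.77 against 1.87 to 6.07. Gm23119 is annotated as a small Cajal body RNA, a class that polyadenylated libraries capture poorly, and was a gained fall from 1.33 to 2.72 to 0 to 0.477 FPKM in the knockout.

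The same 53 genes can be read as gaps between genotypes, which share libraries with the interaction and are given as values. For 28 of them the genotypes differed by limma with adjusted p under 0.05 after ligation and not after sham surgery, for 15 after sham surgery and not after ligation, for 10 after both and for none after neither. The gap had opposite signs after sham surgery and after ligation in 40 of the 53, 20 of the 22 with a higher and 20 of the 31 with a lower knockout response. Genes called for an interaction are selected for gaps that differ, so these counts describe the selected genes. The gap calls also use 1 variance per gene over all groups. With only the compared groups in the fit, more of all tested genes differed after sham surgery than after ligation, the reverse of the order with all groups. The split of the 53 was not made with that fit. Srebf1 went from -1.29 after sham surgery to 1.25 after ligation and Epha2 from 0.87 to -0.67. Mx1, Slfn4, Ly6c2 and Irf9 were called lower in the knockout after both surgeries, with the larger gap after ligation. Ifit1, at -1.41 ± 0.43 after sham surgery (limma adjusted p = 0.0875) and -4.25 ± 0.43 after ligation (limma adjusted p = 8.39e-06), was called after ligation only.

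**Figure D4:**
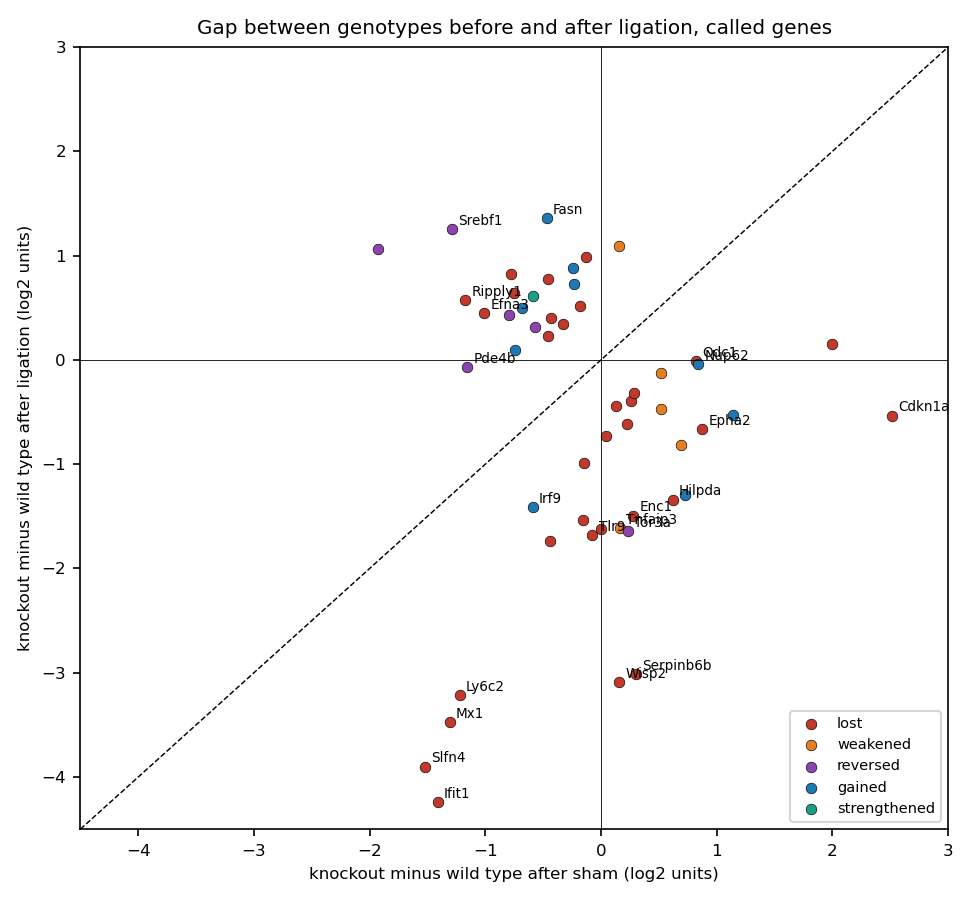
Knockout minus wild type after sham surgery (x axis) and after ligation (y axis), in log2 units, for the 53 called genes coloured by class. The dashed line marks equal gaps. Ifit1, Slfn4, Mx1 and Ly6c2 lie at the lower left, Cdkn1a lies at 2.51 on the x axis and near the zero line after ligation, and Srebf1 sits at the upper left.

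In the remaining lists no member was called for the interaction with all libraries. Of 16 bile acid and lipid transporters 5 were higher and 1 lower at an unadjusted p under 0.05. Abcg5 and Abcg8, which form the sterol exporter of the canalicular membrane, had interactions of 1.65 ± 0.45 and 1.77 ± 0.42 and did not pass (limma adjusted p = 0.133 and 0.0830), after falls of 1.69 and 2.32 in wild type and responses of -0.038 ± 0.32 and -0.55 ± 0.30 in the knockout. Slc10a1, the sodium-dependent bile acid uptake carrier NTCP, had an interaction of 1.37 ± 0.51 (limma adjusted p = 0.247). Of 22 hepatocyte genes 13 fell in wild type and 8 in the knockout, or 14 without BDL_KO_2359 and BDL_KO_2248. Their median interaction went from 0.38 to 0.11 without those libraries. Of 28 drug metabolism genes 14 fell in wild type and 10 in the knockout, with 2 higher for the interaction at an unadjusted p under 0.05 and medians of 0.68 and 0.36 with and without them.

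In other lists about as many members changed in both genotypes with all libraries, though no test shows the responses to be equal. Among 30 genes of fatty acid oxidation or targets of PPARalpha, 18 fell in wild type and 21 in the knockout, with a median interaction of -0.28. Of 18 major urinary protein genes, whose paralogs share reads, 15 fell in wild type and 16 in the knockout, with medians of -3.73 and -4.13 log2 units. Of 26 acute phase genes 15 rose in wild type, with a median response of 1.33, and 16 in the knockout, with a median of 1.64. This list depended on the libraries that stand apart, since without them 12 rose in the knockout, its median response was 0.87 and the median interaction turned from 0.22 to -0.46. BDL_KO_2248 held 107805 FPKM of acute phase genes in sum, against 22531 to 40863 in the other 4 BDL_KO libraries. Slc51b, a subunit of the basolateral bile acid exporter, rose by 2.81 ± 0.31 in wild type and by 2.72 ± 0.31 in the knockout (interaction -0.097 ± 0.43, limma adjusted p = 0.957).

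**Figure D5:**
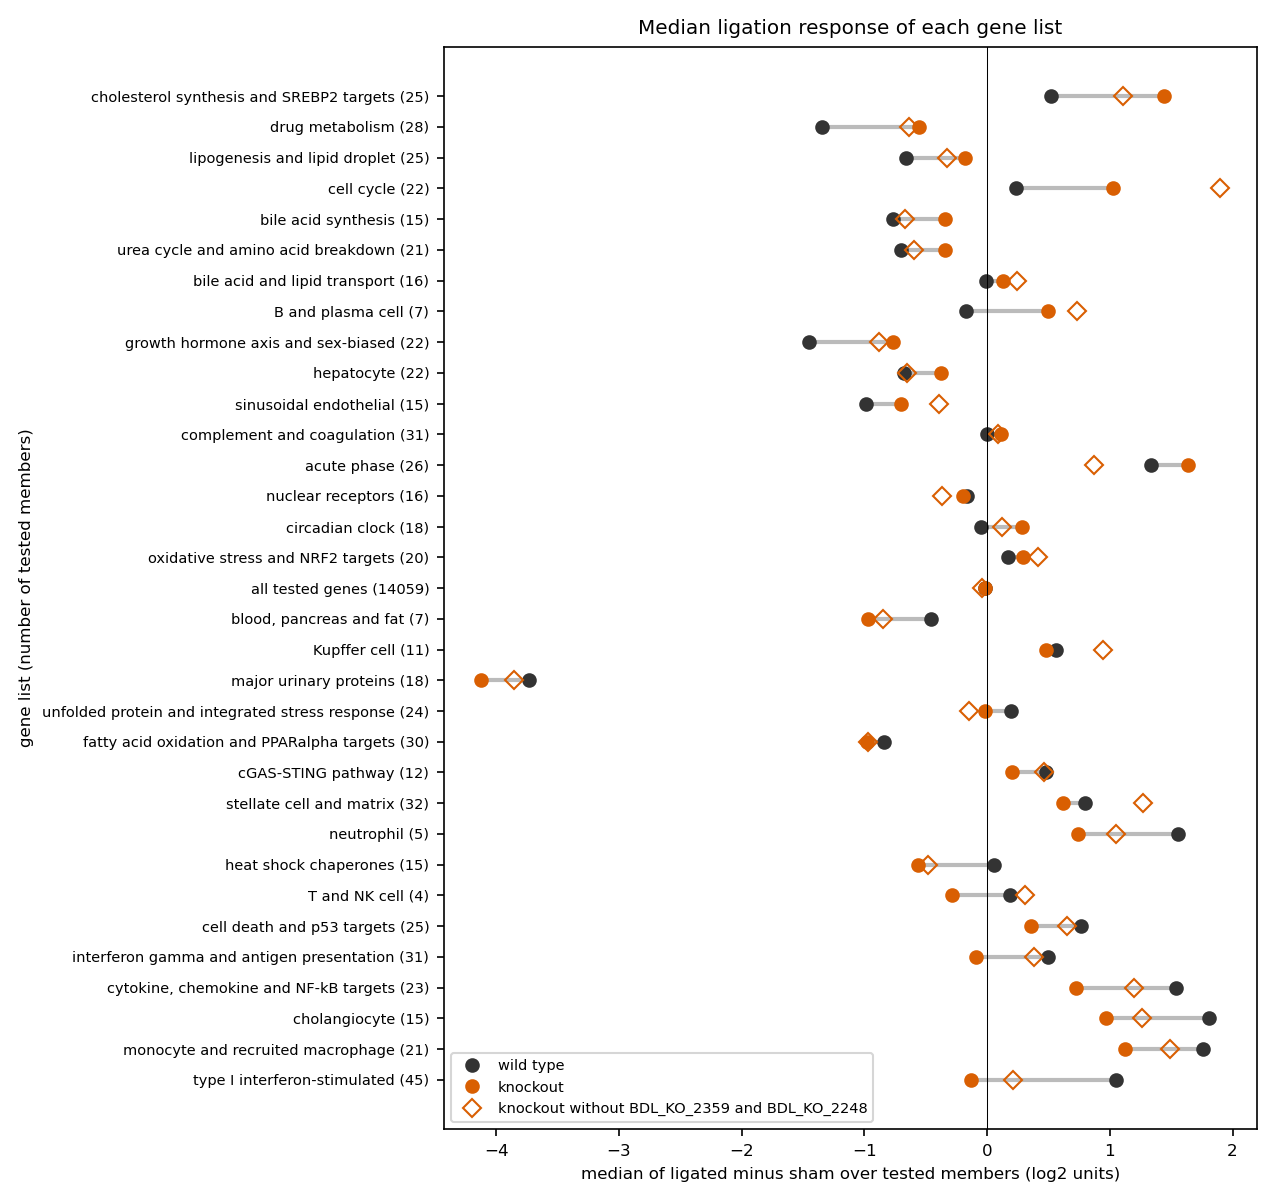
Median response to ligation (x axis, log2 units) over the tested members of each gene list (y axis, number of members in parentheses), for wild type (grey), knockout (filled orange) and knockout without BDL_KO_2359 and BDL_KO_2248 (open diamonds). The type I interferon-stimulated list is at the bottom, with the lowest knockout-minus-wild-type median, cholesterol synthesis is at the top, and the cell cycle, stellate cell and cholangiocyte medians shift when those libraries are left out.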

How the data were processed

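Polyadenylated RNA of mouse liver was sequenced in 20 libraries, and groups were taken from the sample titles. The authors deposited 1 table of FPKM, with 54532 gene entries and 1 column per library. The submitters' processing notes list the aligner HISAT2 2.0.5, the counter featureCounts 1.5.0-p3, fastp, CASAVA 1.8 and DESeq2 1.20.0, and name GRCm38 and mm10 as builds, without saying what each was used for. The annotation release and the use of strand are not given in the sources used here. Mice lacking Abcb4, named in the series design, were not analysed here.

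To recover depth, FPKM values were multiplied by exonic lengths from GENCODE M21. Of low values (up to 20 fragments), 98.16 to 98.51% per library then fell on whole fragments within 0.02, and assigned fragments summed to 14.95 to 20.90 M per library. Of the entries 105 repeated an earlier gene name.

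Genes reaching 0.5 FPKM in 5 or more of the 20 libraries were analysed as log2(FPKM + 0.5) with limma 3.58.1 in R 4.3.3, as 1 mean per group, with moderated variances (trend, robust) and Benjamini-Hochberg adjustment over 14059 genes. Contrasts were the ligation response of each genotype, the genotype gap after each surgery and the interaction. Called genes were classed by the calls in each genotype. Tmem173 was compared by exact permutation tests. The script was tested on simulated data. The text names a subset of the genes that a rule selects: Tmem173, the 15 largest called interactions in each direction (group mean of at least 1 FPKM in at least 1 group, predicted genes left out), the 5 largest per class, and up to 4 called members per list or, with fewer than 2 called, also its 2 most abundant members. Other members of the 32 lists with small p-values, and members whose rise or fall is set beside them, were named after their values were seen. The gene lists, the members and the tests were chosen with earlier results of these data known. Alternatives were other pseudocounts, filters, scalings and fits, library type (Y-linked transcripts or Xist), and leaving out libraries. Files were read in Python 3.11.15 (numpy 2.4.6, pandas 2.3.3), and figures drawn with matplotlib 3.10.9. Some genes, 2 of the called ones among them, are not reported here. Promoter sequences are those of RefSeq on GRCm38.p6.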

Additional observations from a re-analysis of the deposited data

Results flagged for a closer look

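The test of the interaction, limma with adjusted p under 0.05, called 53 genes whose ligation response differed between genotypes. Among 27 genes named in the text, the highest or lowest library of each group of 5 was compared with the rest of its group, 108 groups in all, and 5 single libraries lay far from the others of their group, where chance gives about 1 in 20 groups. Irf9 measured 17.2 FPKM in Sham_Wt_2229 against 12.5 to 13.3 in the other sham wild-type libraries. In Sham_KO_2349 Irf9 was at 8.01 FPKM against 9.05 to 9.39. BDL_Wt_2237 held 12.1 FPKM of Irf9 against 14.7 to 15.4 and 9.59 FPKM of Epha2 against 12.2 to 13.3. Cd300lg was at 4.62 FPKM in Sham_Wt_2227 against 5.80 to 6.06.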

How the results depend on the processing

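All 53 called interactions kept their direction under each alternative that measured them, and most calls depended on the setting. The count of 53 (22 higher, 31 lower; 32 lost, 5 weakened, 9 gained, 1 strengthened, 6 reversed) stayed within 1.5 times with a pseudocount of 1 (56), a filter at 1 FPKM (49), median-ratio scaling (52), no robust estimation (53), library type, meaning Y-linked transcripts or Xist, as a covariate (52, 44 of them among the 53) and quantile normalization (67, with 10 weakened). A pseudocount of 0.1 gave 41 calls, 20 of them lower and 2 weakened. No filter gave 9 calls (5 higher, 4 lower; 5 lost, 0 weakened, 2 gained, 0 strengthened, 2 reversed), where more genes were tested. TPM, under which the median interaction of all genes was -0.14, gave 7 (4 higher, 3 lower; 4 lost, 0 weakened, 1 gained, 0 strengthened, 2 reversed), and total fragment scaling, median -0.11, gave 21 (8 higher, 13 lower; 13 lost, 1 weakened, 5 gained, 0 strengthened, 2 reversed). Voom on recovered fragments gave 22, with 16 higher, 6 lower, 8 lost, 6 gained and 1 weakened, and array weights gave 142 (68 higher, 74 lower; 68 lost, 24 weakened, 25 gained, 4 strengthened, 21 reversed). In libraries with Y-linked transcripts alone 2 genes were called (0 higher, 2 lower; 1 lost, 1 weakened, 0 gained, 0 strengthened, 0 reversed), and in those with Xist alone 0 in every class, with fewer libraries. Where no other construction is named, the cause was not tested. The interaction differed between library types for 0 genes by limma after adjustment and for 466 before it. Without BDL_KO_2359 and BDL_KO_2248 there were 178 calls (113 higher, 65 lower; 51 lost, 16 weakened, 73 gained, 17 strengthened, 21 reversed).

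Leaving out 1 library gave 8 to 151 calls, 5 to 55 higher and 2 to 96 lower, with 2 to 100 lost, 0 to 23 weakened, 2 to 15 gained, 0 to 2 strengthened and 3 to 14 reversed. With only the compared groups in the fit, the genotypes differed in 821 genes after sham surgery in place of 418 and in 283 after ligation in place of 1241. Tmem173 stayed lower in the knockout, by 0.70 to 0.97 log2 units after sham surgery and by 1.01 to 1.37 after ligation when 1 library was left out. No paired analysis was possible because the groups share no library number. Genes near 0.5 FPKM, such as Tlr9, Slfn4 and Wisp2 outside BDL_Wt, rest on few fragments at this depth.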

Other observations

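None of the gene groups described next had a member called for the interaction. Of 24 genes of the unfolded protein and integrated stress response 4 rose in wild type and 2 in the knockout, and 2 were lower for the interaction at an unadjusted p under 0.05. Of 18 circadian clock genes 3 were higher and 1 lower, with a median interaction of 0.12, or -0.042 without BDL_KO_2359 and BDL_KO_2248. Of 21 urea cycle and amino acid breakdown genes 10 fell in wild type and 5 in the knockout, or 12 without those libraries, with 5 higher for the interaction before adjustment and a median of 0.47, or 0.25 without them. After ligation 9 of these 21 were called higher in the knockout than in wild type and none lower, against 486 higher and 755 lower of all 14059 tested genes. Of 31 complement and coagulation genes 7 were higher and 2 lower before adjustment, with a median of 0.23, or 0.11 without those libraries. Of 7 B and plasma cell markers 3 were called higher in the knockout after ligation and 2 after sham surgery, against 486 and 184 of all 14059 tested genes. Summed B and plasma cell markers were 18.6, 12.8, 22.6, 17.0 and 27.2 FPKM in Sham_Wt, 31.1, 13.4, 21.2, 15.8 and 26.4 in BDL_Wt, 44.6, 35.9, 35.8, 67.4 and 39.6 in Sham_KO and 31.6, 69.1, 70.5, 52.5 and 126 in BDL_KO, with all sham knockout libraries above all sham wild-type libraries and the ligated groups apart too. These sums were mostly the immunoglobulin transcripts Igkc and Igha and do not stand for the other markers. Over the 7 markers the median of knockout minus wild type was -0.17 after sham surgery and 0.63 after ligation.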
